A study of Homo sapiens with 3 samples.

Results

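The genes of the oxidative phosphorylation complexes were examined in CUT&Tag peak lists of acetylated histone H3 lysine 27 (H3K27ac) from the human ovarian carcinoma line A2780. Members were the nuclear protein-coding genes of the RefSeq table of GRCh38 whose symbol starts with NDUF (complex I), SDH (complex II), UQCR (complex III), COX and a digit (complex IV) or ATP5 (complex V). These were 109 of 19974 protein-coding genes, with 46, 8, 9, 26 and 20 in complexes I to V. They included 21 assembly factors, 7 tissue-restricted isoforms and 2 read-through genes that share an end with NDUFC2 or ATP5MF. The series asked what follows from inhibiting BIN2. Cells labelled BPP received the peptide of that name, described in the design as a competitor for phosphorylation of BIN2. Cells labelled CTR were the control; the design names a TAT peptide as comparator for its RNA-seq, and the labels of this assay say only CTR. An IgG library measured background. All were A2780 cells, with 1 library per group, so differences between BPP and CTR have no replicate check and no test was run.

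Oxidative phosphorylation makes most of the ATP of respiring cells. Complexes I (NADH dehydrogenase) and II (succinate dehydrogenase) pass electrons to ubiquinone, complex III (cytochrome bc1) hands them to cytochrome c, and complex IV (cytochrome c oxidase) reduces oxygen with them. Complexes I, III and IV pump protons, and complex V (ATP synthase) uses the gradient. A few core subunits are encoded in mitochondrial DNA, while all other subunits and the assembly factors are nuclear. Factors known to bind such promoters include NRF1, the ETS factor GABPA, YY1 and ERR-alpha. H3K27ac marks active promoters and enhancers.

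Promoter sequences are shown first for the members that the values below turn on. The first 5 carry the CTR peak of highest −log10 q over a listed promoter within complexes IV, V, III, I and II. SDHAF2 is also the highest member marked in the CTR list and not in the BPP list, and NDUFV2 is its counterpart in the BPP list. Each line gives the 250 bases before the annotated start, 5′ to 3′ on the gene's strand, from RefSeq (GRCh38.p14). Capitals mark letters matching the NRF1 palindrome, CCGGAAG (ETS), AAGATGGC (YY1), AAGGTCA (ERR), GGGCGG (GC box) or CCAAT on either strand.
COX18, chr4:73069717-73069966, minus strand: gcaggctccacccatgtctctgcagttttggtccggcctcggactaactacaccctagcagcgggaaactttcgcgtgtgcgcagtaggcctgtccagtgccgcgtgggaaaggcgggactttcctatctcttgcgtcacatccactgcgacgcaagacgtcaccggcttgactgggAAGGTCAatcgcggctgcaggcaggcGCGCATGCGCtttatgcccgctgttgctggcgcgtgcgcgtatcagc
ATP5PF, chr21:25735055-25735304, minus strand: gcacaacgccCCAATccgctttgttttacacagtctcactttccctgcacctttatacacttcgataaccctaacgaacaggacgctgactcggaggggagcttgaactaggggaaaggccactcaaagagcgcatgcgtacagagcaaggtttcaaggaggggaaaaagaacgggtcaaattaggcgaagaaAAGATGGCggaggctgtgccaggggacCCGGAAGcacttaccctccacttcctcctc
UQCRC2, chr16:21953111-21953360, plus strand: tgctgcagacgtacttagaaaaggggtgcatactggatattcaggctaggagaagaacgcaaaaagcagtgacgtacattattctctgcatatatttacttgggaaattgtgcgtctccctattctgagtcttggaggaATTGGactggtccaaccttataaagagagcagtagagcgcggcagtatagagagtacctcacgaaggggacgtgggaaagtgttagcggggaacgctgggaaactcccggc
NDUFB1, chr14:92121707-92121956, minus strand: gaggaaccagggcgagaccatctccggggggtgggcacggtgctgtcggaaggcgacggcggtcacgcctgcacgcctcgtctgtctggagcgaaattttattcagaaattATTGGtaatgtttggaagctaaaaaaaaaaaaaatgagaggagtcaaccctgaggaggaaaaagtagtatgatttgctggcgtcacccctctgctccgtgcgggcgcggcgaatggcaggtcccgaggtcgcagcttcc
SDHAF2, chr11:61429874-61430123, plus strand: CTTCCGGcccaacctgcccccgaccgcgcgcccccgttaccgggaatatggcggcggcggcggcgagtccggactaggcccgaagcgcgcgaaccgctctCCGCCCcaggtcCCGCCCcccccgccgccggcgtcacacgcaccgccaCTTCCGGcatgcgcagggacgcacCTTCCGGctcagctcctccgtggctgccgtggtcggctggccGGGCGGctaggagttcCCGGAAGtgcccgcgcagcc
NDUFV2, chr18:9102449-9102698, plus strand: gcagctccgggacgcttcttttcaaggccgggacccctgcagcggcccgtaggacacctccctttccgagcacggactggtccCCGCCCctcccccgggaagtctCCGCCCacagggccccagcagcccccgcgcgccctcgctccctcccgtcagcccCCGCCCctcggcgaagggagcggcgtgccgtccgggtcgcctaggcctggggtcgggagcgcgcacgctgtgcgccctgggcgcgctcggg
COX18 held an NRF1 match starting 47 bases before its start and an ERR match 73 bases before it. ATP5PF held an ETS match starting 30 bases before its start, a YY1 match at 57 and a CCAAT match. SDHAF2 held 4 ETS matches and 3 GC boxes, NDUFV2 had 3 GC boxes, and UQCRC2 and NDUFB1 had a CCAAT match each and none of the other motifs.

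A gene was called marked in a list when a peak overlapped a window of 1 kb on either side of a gene end. The share of marked members was well above that of all coding genes, and the same in BPP and CTR. In BPP 64 of 109 members were marked (58.7%, 95% Wilson interval 49.3 to 67.5), against 30.6% of all protein-coding genes. In CTR 64 were marked as well, against 31.2%. IgG gave 5 members (4.59%, 1.98 to 10.3), against 2.13%. Intervals cover counting error only and treat genes as independent. Both H3K27ac lists marked 52 members (47.7%, 38.6 to 57.0, against 23.6% of all genes), the BPP list alone 12 (11%, 6.41 to 18.3, against 7.03%) and the CTR list alone 12 (against 7.57%). The remaining 33 were marked in neither (30.3%, 22.4 to 39.5, against 61.8%). Of the 76 members marked in either list (69.7%, against 38.2%), 68.4% (57.3 to 77.8) were marked in both, beside 61.7% for all genes. With peaks of fold 5 or more, 15 members were marked in BPP alone (4.17% of all genes), 8 in CTR alone (6.35%), 32 in both (11.3%) and 54 in neither (78.2%). CTR then marked 40 members, against 17.6% of all genes, and IgG 1, against 0.691%. Among the top 5000 peaks of each list, 33 members were marked in BPP (14.6% of all genes), 33 in CTR (16.1%) and 2 in IgG (1.7%). Both lists then marked 21 members (10.2% of all genes), and 64 were marked in neither (79.5%). In that setting 18 members of complex I, 4 of complex II and 5 of complex IV were marked in either list, against 20.5% of all genes. IgG marked 3 members with windows of 500 bp (1.41% of all genes), 2 at annotated starts (1.35%) and 0 with −log10 q of 5 or more (0.0951%).

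**Figure D1:**
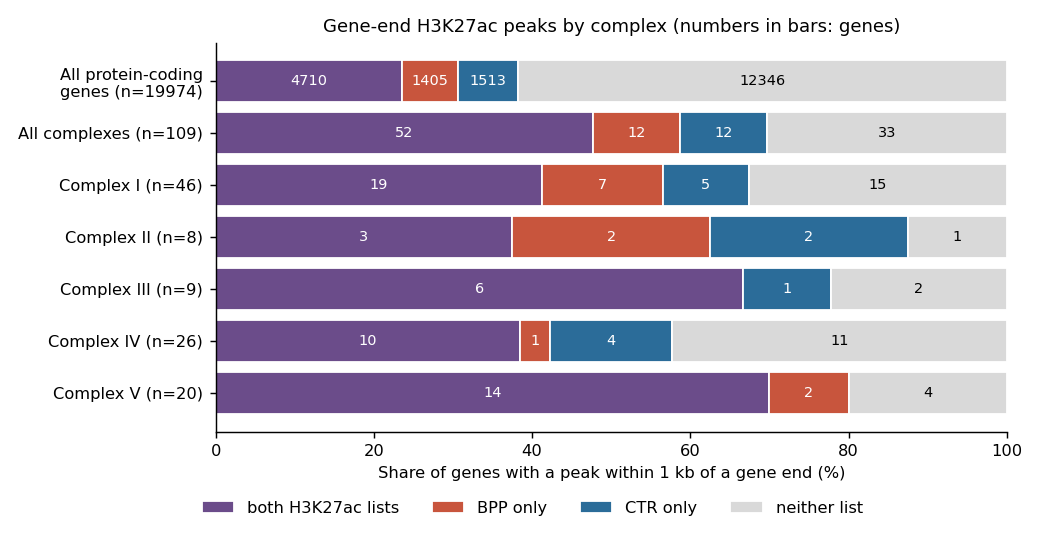
Stacked horizontal bars give the share of genes (x axis, %) with a peak within 1 kb of a gene end in both H3K27ac lists, in BPP only, in CTR only or in neither, for all protein-coding genes, all 109 members and each complex; numbers in bars count genes. Members marked in neither list make 33 of 109, against 12346 of 19974 for all genes.

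The shares of other gene families named by symbol lay on either side of these. Proteasome genes (PSM) were marked in BPP in 80% (67.0 to 88.8) and mitochondrial ribosomal protein genes in 72.7% (61.9 to 81.4), and mitochondrial carrier genes (SLC25) in 43.8% (30.7 to 57.7). In CTR the shares were 82%, 64.9% and 43.8%. The proteasome interval in CTR (69.2 to 90.2) lay above that of the members, and the other intervals overlapped it.

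The heights of the members' peaks resembled those of other marked genes. The highest gene-end peak per member had a median −log10 q of 10.9 in BPP (4.50 to 120.2) and of 9.60 in CTR (3.3 to 105.3). All marked protein-coding genes had medians of 9.82 and 9.55. Median folds were 5.36 and 5.38, beside 5.02 and 5.25 for all marked genes. Both quantities are the authors' own per peak. They rank peaks within a list, and a difference between the lists at a gene is not read as a change, because depth was unknown.

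**Figure D2:**
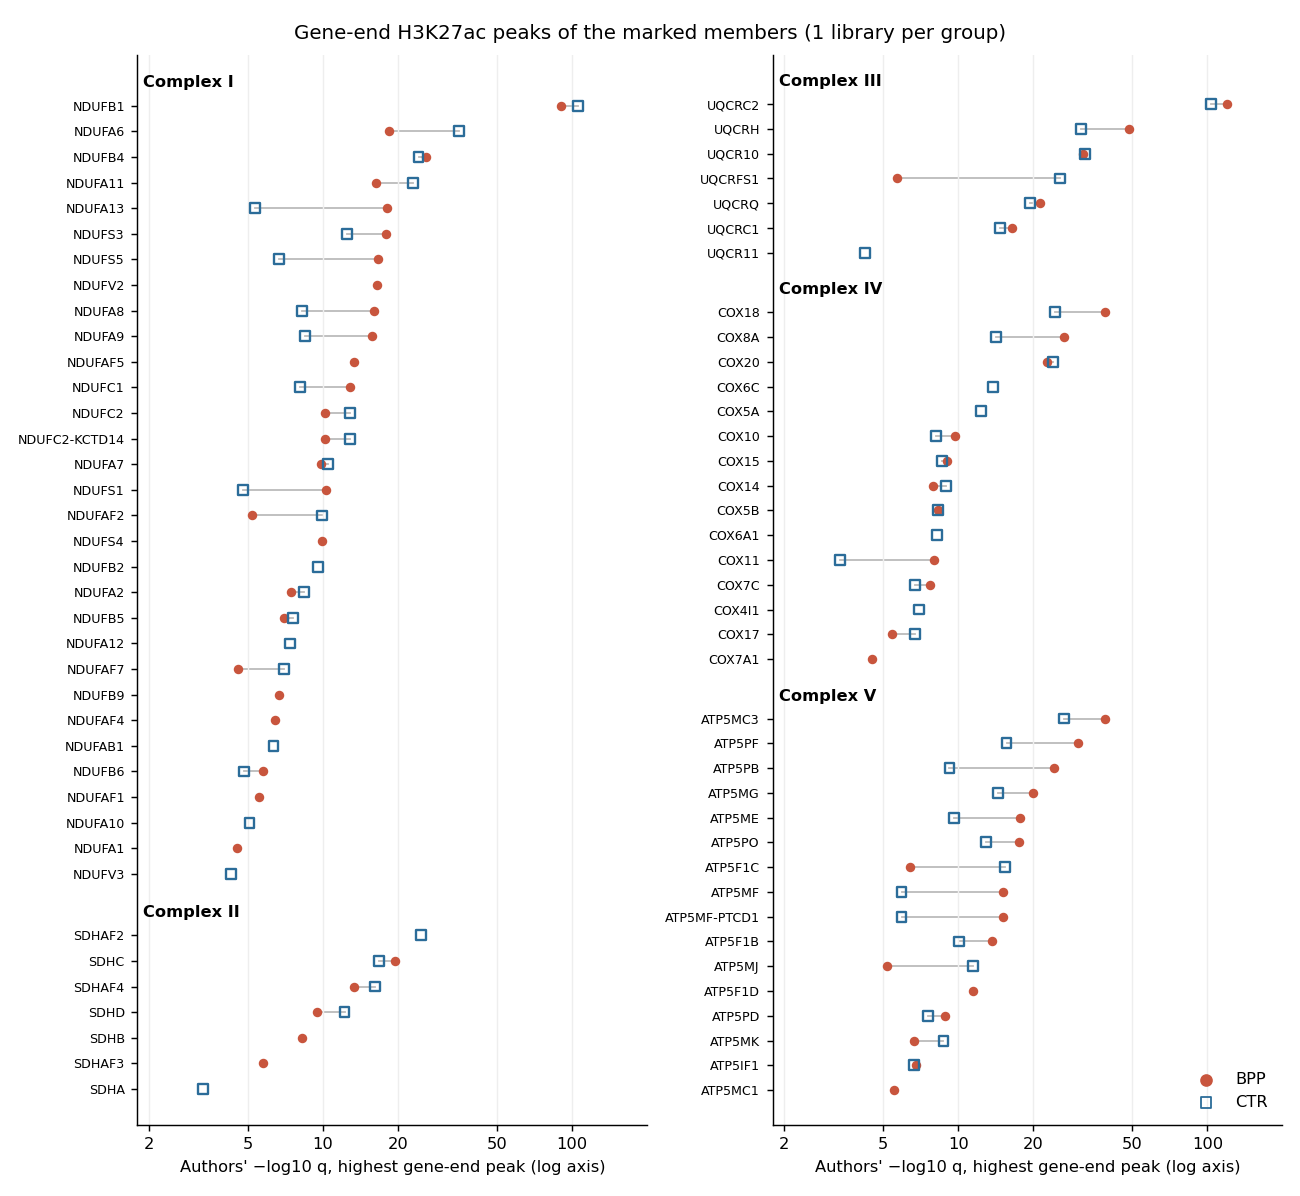
Each row is a member marked in at least 1 H3K27ac list, grouped by complex, with the authors' −log10 q (log axis) of its highest gene-end peak in BPP (filled circles) and CTR (open squares); a grey line joins members marked in both. NDUFB1 and UQCRC2 stand at the far right in both lists, and a symbol alone in its row is a member marked in 1 list.

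In complex I, 19 of 46 members were marked in both lists, 7 in BPP only, 5 in CTR only and 15 in neither. The shares of all genes were 23.6%, 7.03%, 7.57% and 61.8%. NDUFB1, an accessory subunit of the membrane arm, had the tallest peak of the complex. Its fold was 10.3 and its −log10 q 90.2 in BPP (chromosome 14, 92121288 to 92122558), and 12.1 and 105.3 in CTR (chromosome 14, 92121321 to 92122553). The same peaks lie in the window of CPSF2, a gene of the polyadenylation machinery that starts opposite NDUFB1. NDUFA6, an accessory subunit, followed in CTR (fold 9.54, −log10 q 35.2) at chromosome 22, 42090079 to 42091127, and had 6.72 and 18.3 in BPP. NDUFB4 had folds of 10.00 in BPP and 8.71 in CTR, with −log10 q of 25.9 and 24.2. Among core subunits, which include the carriers of the flavin and the iron-sulfur clusters, NDUFS1 and NDUFS3 were marked in both lists, NDUFV2 in BPP only, and NDUFS7, NDUFS8 and NDUFV1 in neither. The NDUFS1 summits lay closer to EEF1B2 (211 bp in BPP and 143 bp in CTR) than to NDUFS1 (376 bp and 308 bp). Given to the nearest gene end, peaks marked NDUFS1 in neither list and NDUFS3 in CTR only, and with −log10 q of 5 or more NDUFS1 was marked in BPP only. Of the 30 accessory subunits, 14 were marked in both, 3 in BPP only, 5 in CTR only and 8 in neither. Those marked in both were NDUFA2, NDUFA6, NDUFA7, NDUFA8, NDUFA9, NDUFA11, NDUFA13, NDUFB1, NDUFB4, NDUFB5, NDUFB6, NDUFC1, NDUFC2 and NDUFS5, and the 8 unmarked were NDUFA3, NDUFA5, NDUFB3, NDUFB7, NDUFB8, NDUFB10, NDUFB11 and NDUFS6.

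Complex I members marked in BPP only were led by NDUFV2, a core iron-sulfur subunit (chromosome 18, 9102732 to 9103141; fold 6.32, −log10 q 16.4). Its nearest CTR peak lay 39.6 kb from a gene end. NDUFAF5, an assembly factor that hydroxylates a core subunit, followed (chromosome 20, 13784615 to 13785416; fold 6.98, −log10 q 13.3), with the nearest CTR peak at 145.8 kb. NDUFS4, an accessory subunit, had a BPP peak at chromosome 5, 53560672 to 53561056 (fold 6.95, −log10 q 9.88). NDUFAF4 (fold 5.84), NDUFAF1 (4.23), NDUFB9 (4.16) and NDUFA1 (4.37) had −log10 q from 4.50 to 6.69. For NDUFA1 and NDUFAF4 the peak summit lay closer to an end of the neighbouring gene, RNF113A or KLHL32. Of 8 complex I assembly factors, 3 were marked in BPP only, 2 in both (NDUFAF2 and NDUFAF7) and 3 in neither (NDUFAF3, NDUFAF6 and NDUFAF8).

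Complex I members marked in CTR only were led by NDUFB2 (chromosome 7, 140696714 to 140697399; fold 5.19, −log10 q 9.57). Its nearest BPP peak lay 144.6 kb away. NDUFB2 also had an IgG peak of fold 4.17 at the opposite end of the gene. NDUFA12 followed at chromosome 12, 95003400 to 95003823 (fold 6.07, −log10 q 7.36). NDUFAB1, the mitochondrial acyl carrier protein, had a fold of 3.92 (−log10 q 6.33), NDUFA10 of 4.29 (5.07) and NDUFV3 of 3.73 (4.28). NDUFA10 had 2 BPP peaks inside its span and none at its ends.

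In complex II, 7 of 8 members were marked in at least 1 list, against 38.2% of all genes. SDHC and SDHD, the membrane anchors, and SDHAF4, which acts on the flavinated catalytic subunit, were marked in both. The SDHC peak reached a fold of 7.32 in BPP (chromosome 1, 161314387 to 161314966; −log10 q 19.4) and 6.99 in CTR (16.7). SDHD had 5.11 and 9.42 in BPP (chromosome 11, 112086595 to 112087254) and 6.07 and 12.2 in CTR. SDHAF4 had folds of 8.55 and 9.18. Of the catalytic pair, SDHB, the iron-sulfur subunit, was marked in BPP only (fold 4.999, −log10 q 8.21) at chromosome 1, 17053449 to 17054152. SDHA, the flavoprotein, was marked in CTR only (fold 3.53, −log10 q 3.3) at chromosome 5, 218686 to 219049. With fold of 5 or more, or among the top 5000 peaks, both genes were marked in neither list. SDHA was also marked in neither with −log10 q of 5 or more. A CTR peak lay inside SDHB, 6.0 kb from its end. SDHA has near-identical pseudogenes, and SDHAP1, SDHAP2 and SDHAP4 on chromosome 3 each had a gene-end peak in CTR and none in BPP. The division of reads between these copies is unknown, so the SDHA peak is uncertain. Over 214 pseudogenes with the same symbol starts, 1 was marked in both H3K27ac lists, 2 in BPP only, 5 in CTR only and 2 in IgG, against 2.04%, 1.38%, 1.14% and 1.89% of all pseudogenes.

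SDHAF2, the factor that helps attach the flavin to SDHA, had the tallest peak of any member marked in CTR only. Its fold was 8.51 and its −log10 q 24.8 (chromosome 11, 61429501 to 61430316), and the nearest BPP peak lay 25.95 kb away. The summit lay 427 bases upstream of the SDHAF2 start and closer to CPSF7, a cleavage factor gene that starts head-to-head with it. Given to the nearest gene end, this tallest peak no longer counted for SDHAF2. The gene then stayed in CTR only through a second CTR peak at its other end (fold 3.85, −log10 q 4.51). SDHAF3, which protects SDHB during assembly, had a BPP peak of fold 5.57 (chromosome 7, 97117604 to 97117978; −log10 q 5.72). SDHAF1, an iron-sulfur assembly factor, was marked in neither, with its nearest peak 10.0 kb away in BPP.

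Complex III had 6 of 9 members marked in both lists, 1 in CTR only and 2 in neither, and its peaks were tall. The shares of all genes were 23.6%, 7.57% and 61.8%. UQCRC2, a core protein of the matrix domain, had the highest peak of all members in BPP, at chromosome 16, 21952796 to 21953700 (fold 14, −log10 q 120.2). The CTR peak at the same place, 21952653 to 21953725, was of fold 12.8 and −log10 q 103.5. These peaks stood above 99.6% and 99.4% of their lists. UQCRH, the hinge protein, had −log10 q of 48.3 and 31.0, and UQCR10 of 31.8 and 32.3. The summits of the UQCRH peaks lay 59 bp and 98 bp from LRRC41 and 141 bp and 180 bp from UQCRH. Given to the nearest gene end, peaks marked UQCRH and UQCRQ in neither list. The median −log10 q over marked complex III members was 26.6 in BPP and 25.6 in CTR, against 10.9 and 9.60 over all marked members. UQCRFS1, the Rieske iron-sulfur protein, had peaks that overlapped by 35 bp. The CTR peak (chromosome 19, 29212643 to 29213207; fold 9.36, −log10 q 25.6) had its summit 144 bp downstream of the start. The BPP peak (chromosome 19, 29211945 to 29212677; fold 5.35, −log10 q 5.70) had it 1043 bp downstream. UQCR11 was marked in CTR only (fold 3.02, −log10 q 4.22), with a BPP peak 1.72 kb from its end. UQCRB and UQCRHL, a close copy of UQCRH, were marked in neither.

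Of the 9 assembly factors of complex IV 7 were marked in both lists, none in 1 list only and 2 in neither. Of the 10 broadly expressed structural subunits 3 were marked in both, 4 in CTR only and 3 in neither. Of all genes 23.6% were marked in both, 7.57% in CTR only and 61.8% in neither. The shares marked in both were 77.8% (45.3 to 93.7) and 30% (10.8 to 60.3), and these intervals overlap. The shares in CTR only were 0% (0 to 29.9) and 40% (16.8 to 68.7), which overlap as well. COX11 was marked in BPP only with −log10 q or fold of 5 or more and by the nearest gene end, COX14 in neither with fold of 5 or more, and COX15 in neither by the nearest gene end. Among the top 5000 peaks only COX18 and COX20 of these 9 were marked in both lists, and the others in neither. The tallest assembly-factor peak was at COX18, an insertase for a mitochondrially encoded subunit. Its fold was 10.9 and its −log10 q 38.8 in BPP (chromosome 4, 73069275 to 73069963), and 8.58 and 24.4 in CTR. COX20, a chaperone of that subunit, had folds of 5.80 and 6.10 with −log10 q of 22.8 and 23.9. COX10 and COX15, which make heme A, had folds of 6.39 and 5.06 in BPP and 5.91 and 5.38 in CTR. COX11 and COX17, which deliver copper, and COX14 were marked in both, and COX16 and COX19 in neither.

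The 4 complex IV subunits marked in CTR only were COX6C (fold 6.08, −log10 q 13.8), COX5A (5.77, 12.3), COX6A1 (5.19, 8.23) and COX4I1 (4.18, 6.94). COX4I1 and COX5A are nuclear subunits that join early in assembly. Their CTR peaks lay at chromosome 16, 85799692 to 85800198 and at chromosome 15, 74937559 to 74938049. The nearest BPP peaks lay 2.07 kb from COX4I1, 5.52 kb from COX6A1, 12.2 kb from COX5A and 256.5 kb from COX6C. With windows of 2 kb these 4 still had no BPP gene-end peak. With fold of 5 or more COX4I1 was marked in neither list, as were COX4I1 and COX6A1 among the top 5000 peaks. COX8A, COX5B and COX7C were the subunits marked in both, with folds of 5.70, 5.36 and 5.07 in BPP and 4.85, 5.99 and 4.58 in CTR.

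Broadly expressed and tissue-restricted isoforms were set side by side for 7 pairs. Among the broad isoforms COX8A and ATP5MG were marked in both lists, COX4I1 and COX6A1 in CTR only, and COX6B1, COX7A2 and COX7B in neither. COX7A2, unmarked by the gene-end rule, had a peak inside the gene in both lists (fold 8.69 in BPP and 8.28 in CTR). Of the restricted isoforms COX4I2, COX6A2, COX6B2, COX7B2, COX8C and ATP5MGL were marked in neither list. COX7A1, a heart and muscle isoform, had a BPP peak of fold 3.32 (chromosome 19, 36150105 to 36150676; −log10 q 4.50) whose summit lay closer to CAPNS1, a calpain subunit gene. COX7B2 had an IgG peak of fold 3.58. The promoters of the 2 pairs with a marked and an unmarked gene and a sequence for each are shown to compare them, 250 bases before the start as above.
COX8A, chr11:63974370-63974619, plus strand: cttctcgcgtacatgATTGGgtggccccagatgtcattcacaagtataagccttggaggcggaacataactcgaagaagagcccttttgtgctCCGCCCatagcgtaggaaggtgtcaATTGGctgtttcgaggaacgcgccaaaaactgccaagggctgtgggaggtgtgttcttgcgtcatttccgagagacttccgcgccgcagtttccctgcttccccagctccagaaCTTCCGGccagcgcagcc
COX8C, chr14:93346932-93347181, plus strand: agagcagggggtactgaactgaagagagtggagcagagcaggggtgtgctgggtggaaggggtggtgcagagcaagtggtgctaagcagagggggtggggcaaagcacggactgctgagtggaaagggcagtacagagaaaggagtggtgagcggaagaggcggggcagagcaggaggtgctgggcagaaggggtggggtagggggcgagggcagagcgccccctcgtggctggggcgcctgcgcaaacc
COX6A1, chr12:120437863-120438112, plus strand: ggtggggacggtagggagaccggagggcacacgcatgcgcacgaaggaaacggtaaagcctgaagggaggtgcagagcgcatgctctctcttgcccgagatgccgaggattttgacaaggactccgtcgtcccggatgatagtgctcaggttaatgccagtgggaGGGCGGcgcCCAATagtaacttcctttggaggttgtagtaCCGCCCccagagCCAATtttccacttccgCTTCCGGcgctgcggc
COX6A2, chr16:31428361-31428610, minus strand: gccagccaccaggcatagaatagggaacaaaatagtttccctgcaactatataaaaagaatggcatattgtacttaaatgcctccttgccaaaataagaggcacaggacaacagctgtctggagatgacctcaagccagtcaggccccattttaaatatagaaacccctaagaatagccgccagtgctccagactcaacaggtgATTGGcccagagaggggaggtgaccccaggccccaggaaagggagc
COX8A, marked in both lists, held an ETS match starting 18 bases before its start, with 2 CCAAT matches and a GC box. COX8C, the testis isoform, held none of the motifs in these bases. COX6A1, marked in CTR, held an ETS match starting 16 bases before its start, 2 GC boxes and 2 CCAAT matches, and COX6A2, the heart and muscle isoform, a CCAAT match.

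In complex V, 14 of 20 members were marked in both lists, 2 in BPP only, none in CTR only and 4 in neither. The shares of all genes were 23.6%, 7.03%, 7.57% and 61.8%. The 14 include ATP5MF and its read-through gene ATP5MF-PTCD1, marked by the same peaks. With fold of 5 or more ATP5F1D and ATP5MC1 were marked in neither list and ATP5F1C and ATP5MJ in CTR only. ATP5MF and its read-through gene were then marked in BPP only. ATP5MC3, 1 of 3 genes that encode the same c-ring subunit, had the tallest peaks. Its fold was 10.9 and its −log10 q 38.8 in BPP (chromosome 2, 175180954 to 175181738), and 10.00 and 26.5 in CTR. All 4 peripheral stalk genes, ATP5PB, ATP5PD, ATP5PF and ATP5PO, were marked in both. Their folds were 8.10, 5.01, 7.19 and 8.45 in BPP and 5.19, 5.20, 5.27 and 6.80 in CTR. With each peak given to the nearest gene end, ATP5PB and ATP5PF were marked in neither list. The ATP5PB summits lay 233 bp (BPP) and 84 bp (CTR) from an end of WDR77, against 441 bp and 292 bp from its own. The ATP5PF peaks (chromosome 21, 25734560 to 25735532 in BPP, 25734342 to 25735839 in CTR) also lay in the window of GABPA. GABPA is the ETS factor known to bind promoters of this pathway. The peak summits lay 282 bp (BPP) and 283 bp (CTR) from an end of GABPA. Their distances to the ATP5PF gene end were 399 bp and 398 bp. The annotated start of ATP5PF lies 599 bp inside that gene end. Both summits were closer to this start than to the end of GABPA. Of the 5 genes of the catalytic F1 part, ATP5F1B and ATP5F1C were marked in both, ATP5F1D in BPP only, and ATP5F1A and ATP5F1E in neither. ATP5F1B, the catalytic subunit, had folds of 5.84 and 5.11. ATP5F1D had a BPP peak of fold 3.34 and −log10 q 11.4 (chromosome 19, 1244222 to 1245248), with the nearest CTR peak 8.70 kb away. ATP5MC1, a second c-ring gene, had 3 BPP gene-end peaks with folds of 3.26, 3.66 and 3.23. The membrane-part genes ATP5ME, ATP5MF, ATP5MG, ATP5MJ and ATP5MK were marked in both. ATP5IF1, the inhibitor of ATP hydrolysis, was marked in both with folds of 3.79 and 4.15.

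Peaks of both lists lay at the same place in most members. In 50 of the 52 members marked in both, a BPP and a CTR peak overlapped by at least 1 bp (96.2%, 87.0 to 98.9), beside 95% for all genes marked in both. The overlap could be small, as at NDUFA9 with 11 bp. At NDUFA7 the BPP peak lay at the start (chromosome 19, 8320962 to 8322009) and the CTR peak at the other end, with its summit 13226 bp from the start and closer to CD320. At NDUFB6 the BPP peak (chromosome 9, 32573267 to 32573581) had its summit 206 bp upstream of the start and the CTR peak (chromosome 9, 32572447 to 32572843) 681 bp downstream.

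The RefSeq promoter table gave a start for 90 of the 109 members and for 15813 protein-coding genes, which places the peaks relative to transcription. In BPP 54 of the 90 members had a peak within 1 kb of the start (60%) and 5 at the other end (5.56%); in CTR the counts were 55 (61.1%) and 3 (3.33%). Of all genes with a start, 30.2% and 5.16% had such peaks in BPP and 32.1% and 3.34% in CTR. At starts 10 members were marked in BPP only, against 6.1% of all genes with a start. With windows of 500 bp around gene ends 14 members were marked in CTR only, against 7.8% of all genes. The summit of the highest gene-end peak lay within 500 bp of the start in 45 of 52 marked members in BPP (86.5%) and in 45 of 54 in CTR (83.3%), beside 62.4% and 72.4% of all marked genes. Its median position was 80.5 bp downstream in BPP and 115.5 bp in CTR.

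**Figure D3:**
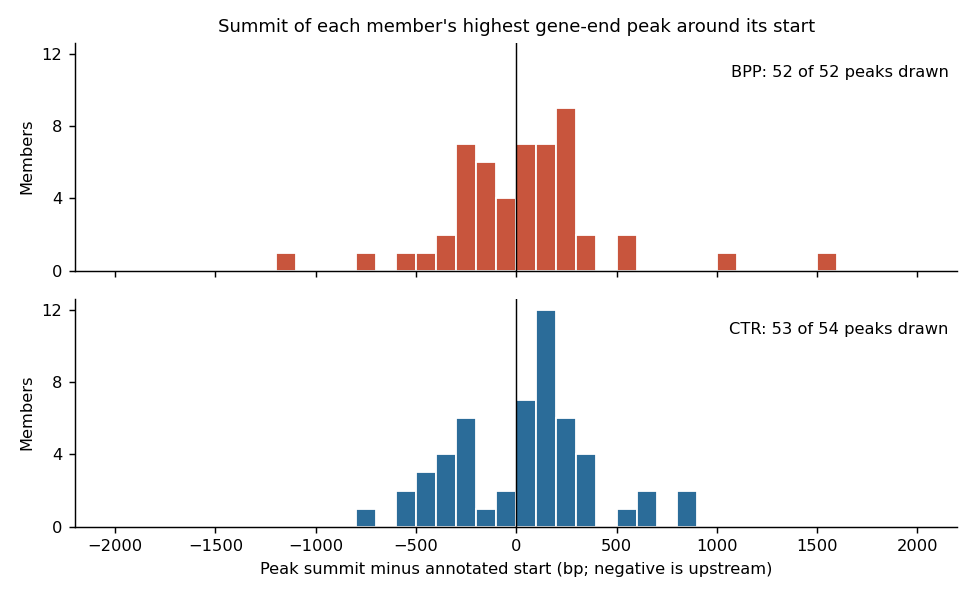
Histograms in 100 bp steps of the distance from the annotated start to the summit of each member's highest gene-end peak (x axis, bp, negative is upstream) for the 52 BPP and 54 CTR members with a known start; 1 CTR peak, at the far end of NDUFA7, lies outside the range drawn. Most summits fall within 500 bp of the start in either list.

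Some members unmarked by the gene-end rule carried peaks inside the gene. Among the 33 unmarked members, ATP5MC2, COX7A2, COX7A2L and NDUFA5 had a peak within the gene span in both lists. At ATP5MC2, the third c-ring gene, the annotated start lies inside the span. Its peaks had folds of 8.34 in BPP (chromosome 12, 53675643 to 53676450; −log10 q 27.4) and 8.44 in CTR, with summits 171 bp downstream of that start. At COX7A2L, which joins complexes III and IV into supercomplexes, the peaks at the start had folds of 8.14 in BPP (chromosome 2, 42361072 to 42361776; −log10 q 40.4) and 9.51 in CTR (−log10 q 45.5). The COX7A2 peaks (fold 8.69 in BPP, chromosome 6, 75243440 to 75244270, and 8.28 in CTR) lay 6640 bp and 6615 bp downstream of its listed start. The NDUFA5 peaks (folds of 6.46 and 6.53) lay 43976 bp and 43854 bp downstream. By the annotated start, ATP5MC2 and COX7A2L count as marked in both lists. ATP5F1A, the alpha subunit, had a CTR peak of fold 7.21 inside the gene (chromosome 18, 46097781 to 46098352), 6109 bp downstream of the start, and no BPP peak within 301.7 kb of its ends. Of the unmarked members 12 had no peak of either list within 10 kb of an end, among them NDUFV1, NDUFB8, NDUFB3 and COX16.

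Many members share a promoter region with a neighbour. Of the 90 members with a known start, 25 had a protein-coding gene starting head-to-head within 1 kb (27.8%, 19.6 to 37.8), against 10.3% (9.84 to 10.8) of all genes with a start. The partners included CPSF2 at NDUFB1, CPSF7 at SDHAF2, EMC8 at COX4I1, EEF1B2 at NDUFS1, KIN at ATP5F1C, LRRC41 at UQCRH and ZMAT5 at UQCR10. In BPP 18 of the 25 were marked (72%, 52.4 to 85.7) and 34 of the other 65 (52.3%, 40.4 to 64.0); in CTR the shares were 76% and 53.8%. For all genes the BPP shares were 62.5% and 29.2%. In 34 of 64 marked members in BPP and 33 of 64 in CTR the highest peak also lay in the window of another protein-coding gene. Giving each peak to the nearest gene end left 49 members marked in BPP and 51 in CTR, against 25.6% and 26% of all genes. This setting put 14 members in CTR only, against 7.6% of all genes. Besides the members named above for this setting, ATP5ME, COX7A1, NDUFA1, NDUFA2, NDUFA11, NDUFAF4 and NDUFC1 were then marked in neither list, ATP5MK in CTR only, and NDUFA7 and NDUFA9 in BPP only.

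ETS letters were more frequent in the promoters of marked members than of unmarked members, with intervals apart, a split also seen over all genes. Matches were counted on both strands of the 300 bases from 250 before to 50 after the start, and none of the 6 motifs contains another. CCGGAAG occurred in 24 of 63 promoters of marked members (38.1%, 27.1 to 50.4) and 2 of 27 of unmarked members (7.41%, 2.06 to 23.4). It was in 14.2% of all 15813 promoters, in 23% of those of marked genes and 8.19% of those of unmarked genes. The NRF1 palindrome was in 7 of 63 (11.1%, 5.49 to 21.2) and 0 of 27 (0 to 12.5%), intervals that overlap, against 1.76% of all promoters, 2.86% of those of marked genes and 1.01% of those of unmarked genes. The 7 were ATP5F1C, COX17, COX18, NDUFA8, NDUFAF5, NDUFB4 and SDHD. AAGATGGC was in 15.9% of marked and 7.41% of unmarked members (3.91% of all promoters), and AAGGTCA in 11.1% of each (3.13%). GGGCGG (61.9% of marked members, 58.5% of all promoters) and CCAAT (28.6% and 36.3%) had intervals that include the share of all promoters. The median GC share was 62.3% in marked and 60.3% in unmarked members, against 62.7% of all promoters. A match describes letters and not binding.

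**Figure D4:**
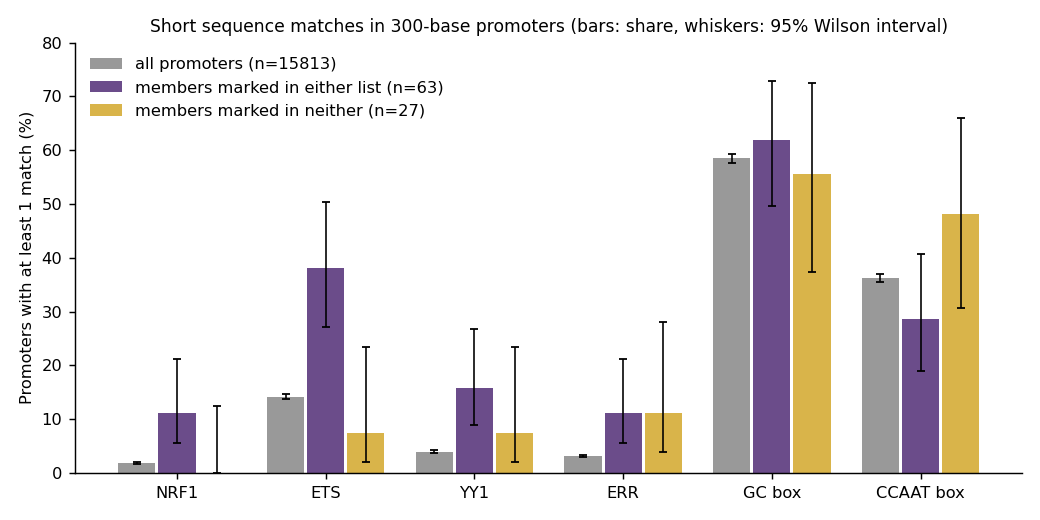
Bars give the share of 300-base promoters (y axis, %) with at least 1 match to each motif on either strand, for all promoters, members marked in either H3K27ac list and members marked in neither; whiskers are 95% Wilson intervals. ETS matches stand at 38.1% in marked members, 7.41% in unmarked members and 14.2% in all promoters. Marks were called at gene ends, so the unmarked members include ATP5MC2 and COX7A2L, with peaks at the annotated start.

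The IgG list overlapped few of these places. Besides NDUFB2 and COX7B2, IgG peaks lay at NDUFA11 (fold 5.13, −log10 q 3.23) and, as a shared peak, at NDUFC2 and its read-through gene (fold 3.58, −log10 q 2.20). At NDUFA11 the IgG peak lay within the H3K27ac peaks (folds of 5.17 in BPP and 6.06 in CTR). Leaving out H3K27ac peaks over IgG peaks left 63 members marked in BPP (30.2% of all genes) and 63 in CTR (30.7%), without NDUFA11.

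Other genes of the pathway, outside the symbol rule, were marked in either list about as often (76.1%, 62.1 to 86.1, against 69.7% of members). Of 46 partners and assembly factors, 19 were marked in both lists (41.3%, 28.3 to 55.7, against 23.6% of all genes). In BPP only 10 were marked (21.7%, 12.3 to 35.6, against 11% of members and 7.03% of all genes). The CTR list alone marked 6 (against 7.57% of all genes), and 11 were marked in neither (against 61.8%). Cytochrome c itself, CYCS, had a BPP peak (fold 5.73, −log10 q 9.30) and no CTR gene-end peak, and CYC1, the cytochrome c1 of complex III, a CTR peak (fold 3.83, −log10 q 9.01) and no BPP gene-end peak. SURF1, BCS1L and TMEM70, assembly factors of complexes IV, III and V, were marked in neither. Of 15 regulators, 8 were marked in both (53.3%, 30.1 to 75.2, against 23.6% of all genes), 3 in CTR only (against 7.57%) and 4 in neither (against 61.8%). TFAM, which activates mitochondrial transcription, had folds of 8.44 in BPP and 8.31 in CTR, and ESRRA, the gene of ERR-alpha, of 5.92 and 5.31. NRF1 had a CTR peak of fold 4.10 (−log10 q 4.75), CREB1 of 5.58 and PPARGC1B of 4.12. YY1, PPARGC1A, PPRC1 and POLRMT were marked in neither.

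For the series as a whole, 17841 BPP, 14836 CTR and 7701 IgG peaks on chromosomes 1 to 22 and X were used. BIN2 was marked in no list. Of 11 epithelial and ovarian carcinoma markers KRT8, KRT18 and MUC1 were marked in both lists and MSLN in BPP only, while EPCAM, CDH1, PAX8, MUC16, WT1, KRT7 and KRT19 were marked in neither. Of 5 mesenchymal markers VIM and ZEB1 were marked in both and TWIST1 in CTR only. None of 10 fibroblast, blood and endothelial markers was marked.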

How the data were processed

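CUT&Tag peak lists of 3 A2780 libraries (BPP, CTR and IgG, 1 each, grouped by sample title) were used. The submitters' processing notes name Bowtie2 2.4.1, fastp, deepTools 3.3.0 and GRCh38.p13, and no peak caller. The authors deposited 1 list per library. The authors' score (−log10 p times 10, truncated) was not used further. The deposited fold is a ratio to a background of unstated kind, and the deposited −log10 p and −log10 q come from their caller. The number of reads was not given, so depth is unknown, and absence from a list can mean a value under the threshold.

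Peaks outside chromosomes 1 to 22 and X were left out (28, 37 and 14), as were 3 mitochondrial genes. Gene spans, starts and promoter sequences came from RefSeq tables of GRCh38.p14, which shares chromosome coordinates with GRCh38.p13; 19 members had no promoter entry. Overlap from 1 bp counted. With 1 library per group there was no test; shares carry 95% Wilson intervals. In all 10 alternatives to the window, threshold, assignment and overlap were tried. Members and lists were chosen with earlier results of these data known. The text names members marked in 1 H3K27ac list, with IgG peaks or unmarked (1 item is not reported here), the 8 highest per list, isoform pairs and all SDH genes, plus examples chosen after their values were seen. Overlaps were tested on simulated data against bedtools 2.31.1, with 0 pairs differing. Scripts ran in Python 3.11.15 with scipy 1.17.1, pandas 2.3.3, matplotlib 3.10.9 and numpy 2.4.6.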

Additional observations from a re-analysis of the deposited data

How the results depend on the processing

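No paired analysis was possible because each group had 1 library. Under windows of 500 bp and 2 kb, the annotated start alone, thresholds of −log10 q or fold of 5, the top 5000 peaks of each list, peaks over IgG left out, the nearest gene end, no read-through genes and a 50% overlap, 94 of the 109 recomputed counts stayed within 1.5 times. IgG members numbered 3 with windows of 500 bp, 2 at the annotated start, 0 with −log10 q of 5 or more, 1 with fold of 5 or more and 2 among the top 5000 peaks. With fold of 5 or more, 40 members were marked in CTR, 32 in both and 54 in neither. With the top 5000 peaks, 33 were marked in BPP, 33 in CTR, 21 in both and 64 in neither, with 18, 4 and 5 marked in either list in complexes I, II and IV. These settings hold fewer peaks by construction. Members marked in BPP only ranged from 10 to 15 and in CTR only from 8 to 14. Requiring 50% of both peaks left 37 of 52 members at the same place (71.2%, 57.7 to 81.7), beside 72.8% for all genes marked in both. In 7 settings on all members, 14 of 52 members stayed marked in both and 2 of 12 in BPP only (NDUFAF5 and NDUFV2). In CTR only 4 of 12 stayed (COX5A, COX6C, NDUFB2 and SDHAF2), and in neither 29 of 33. By the nearest gene end SDHAF2 stayed only through a weaker peak at its other end, and its tallest peak was lost. Of these 7 settings only windows of 2 kb could add a mark. The 29 of 33 therefore cannot be set against the other counts as a measure of stability. The annotated start was not among the 7, and by it ATP5MC2 and COX7A2L were marked in both lists. Counting NDUFA4 and NDUFA4L2 with complex IV was not run, since the gene table used here did not hold them.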

Other observations

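Pseudogenes whose symbols start like those of the members were also read against the lists. Of 214, 8 were marked in at least 1 H3K27ac list (3.74%, 95% Wilson interval 1.91 to 7.20), beside 4.55% of all 16458 pseudogenes. In 3 of the 8 the peak summit lay within 1 kb of a protein-coding gene end, among them NDUFAF4P1 (fold 9.04 in BPP and 9.32 in CTR), where the peaks lay 0.208 kb and 0.210 kb from an end of COPS2.

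The other 5 included SDHAP1, SDHAP2 and SDHAP4, copies of the gene of the complex II flavoprotein on chromosome 3. Each had a peak in CTR only, with folds of 3.54 (195989561 to 195990559), 3.3 (195658409 to 195658905) and 3.99 (197627020 to 197627557) and −log10 q of 5.17, 3.10 and 6.50. SDHA itself was marked in CTR only with a −log10 q of 3.3. Whether these 4 peaks are independent was not tested, because the placement of reads among the copies is unknown. COX6CP16 (BPP, fold 3.20) and SDHCP3 (CTR, fold 4.64) lay inside the genes GSE1 and UBXN2A.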
